A study of Mus musculus with 2 samples.

Results

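The Pax genes encode transcription factors that carry a paired box, a DNA-binding domain, and they were followed here as a family of 9 genes, Pax1 to Pax9, in RNA from the embryonic mouse central nervous system. The members were taken by symbol from 43346 Ensembl genes in the deposited gene tables, and all 9 were matched, together with 74 transcripts. The samples were C57BL/6J embryos at embryonic day 11.5, wild type as far as the labels go, with pooled littermates of both sexes and no treatment. There were 2 libraries of polyadenylated RNA, biological replicates 1 and 2 of the same tissue, made from different biosamples and sequenced with strand information. With 1 group there was no contrast between conditions, so no p-value is given, and each comparison below is between members or between these 2 libraries. The labels give no dissection boundary and no number of embryos per library.

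Vertebrate Pax proteins fall into 4 paralog groups, Pax1/9, Pax2/5/8, Pax3/7 and Pax4/6, which differ in whether they carry a homeodomain or an octapeptide beside the paired domain. In the embryonic neural tube, Pax6 acts in forebrain, eye and spinal progenitors, Pax3 and Pax7 in dorsal progenitors, and Pax2, Pax5 and Pax8 around the midbrain-hindbrain boundary and in inhibitory interneurons. Outside the nervous system, Pax3 and Pax7 act in muscle precursors, Pax1 and Pax9 in the sclerotome and pharyngeal pouches, Pax2 and Pax8 in the kidney, Pax8 in the thyroid, Pax5 in B lymphocytes and Pax4 in pancreatic islets. Several members are also known for splice forms that alter the paired domain, so the pieces of sequence at which these forms part are shown first.

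The pieces below were chosen because the deposited splice junctions counted reads both with and without them. They are read 5′ to 3′ on the gene's strand from the GENCODE M21 transcripts on mm10. Capitals mark the bases that are present in one form and missing in the other, and 15 bases of transcript on either side are in lower case. All 8 pieces lie in annotated coding sequence.
Pax6 42-base exon 5a, chr2:105684751-105684792, plus strand: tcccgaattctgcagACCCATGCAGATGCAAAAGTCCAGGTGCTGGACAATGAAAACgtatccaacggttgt
Pax2 69-base exon, chr19:44796628-44796696, plus strand: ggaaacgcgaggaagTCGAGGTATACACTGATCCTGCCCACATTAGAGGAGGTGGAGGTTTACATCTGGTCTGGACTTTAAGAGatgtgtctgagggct
Pax5 57-base exon, chr4:44615560-44615616, minus strand: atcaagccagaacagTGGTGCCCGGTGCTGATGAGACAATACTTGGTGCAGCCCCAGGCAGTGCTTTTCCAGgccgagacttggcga
Pax3 3-base acceptor choice, chr1:78193867-78193869, minus strand: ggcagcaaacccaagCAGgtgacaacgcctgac
Pax7 3-base acceptor choice, chr4:139829624-139829626, minus strand: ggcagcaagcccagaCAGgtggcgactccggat
Pax7 6-base acceptor choice, chr4:139828705-139828710, minus strand: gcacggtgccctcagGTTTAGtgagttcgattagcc
Pax8 3-base acceptor choice, chr2:24443138-24443140, minus strand: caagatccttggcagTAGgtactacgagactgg
Pax1 5-base acceptor choice, chr2:147365733-147365737, plus strand: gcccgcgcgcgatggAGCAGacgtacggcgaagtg
In Pax3 and Pax7 the choice fell at the start of an exon of the same length, 130 bases, and the 3 optional bases were the same, CAG. The Pax8 choice offered 3 other bases, TAG. The Pax1 piece, 5 bases long, is the one acceptor piece here whose length is not a multiple of 3, and it lies in exon 2 of Pax1-201.

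Both libraries carried abundant RNA of neural cells, and replicate 2 also carried RNA of trunk tissues. Expected counts over Ensembl genes totalled 120461126 in replicate 1 and 108007021 in replicate 2. The 7 neural progenitor markers summed to 4259 TPM (a transcript level scaled for length and depth) in replicate 1 and 2133 TPM in replicate 2. Vim alone supplied most of these sums, at 2643 and 1153 TPM. By scaled counts 3 of the 7, Vim not among them, were at least 2-fold lower in replicate 2, and none was higher. The 7 young neuron markers summed to 1556 and 1279 TPM. The 10 caudal Hox genes, which mark trunk levels of the body axis, summed to 6.96 TPM in replicate 1 and 215 TPM in replicate 2. The 10 skeletal muscle markers summed to 4.22 TPM and 134 TPM. In replicate 2 the counts of 10 of 10 Hox genes exceeded those in replicate 1 by 2-fold or more, as did those of 9 of 9 muscle genes with 100 counts or more. Conversely, 5 of 10 midbrain-hindbrain boundary genes, 4 of 8 forebrain genes and 5 of 8 ventral neural tube genes were at least 2-fold lower there. These values move with the Pax differences below, and their part in those differences was not tested.

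The summed level of the Pax family was nearly the same in both libraries, while its make-up was not. The 9 members together reached 102 TPM in replicate 1 and 104 TPM in replicate 2 (mean 103 ± 1.34 TPM, SD, n = 2). Pax4/6 supplied 58.9% of that sum in replicate 1 and 41.5% in replicate 2. Pax3/7 supplied 26.7% and 20.6%, and Pax2/5/8 supplied 13.5% and 15.5%. Pax1/9 supplied 0.862% in replicate 1 and 22.4% in replicate 2. Pax3, Pax5, Pax6 and Pax7 had lower TPM in replicate 2 and the other members higher TPM.

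**Figure D1:**
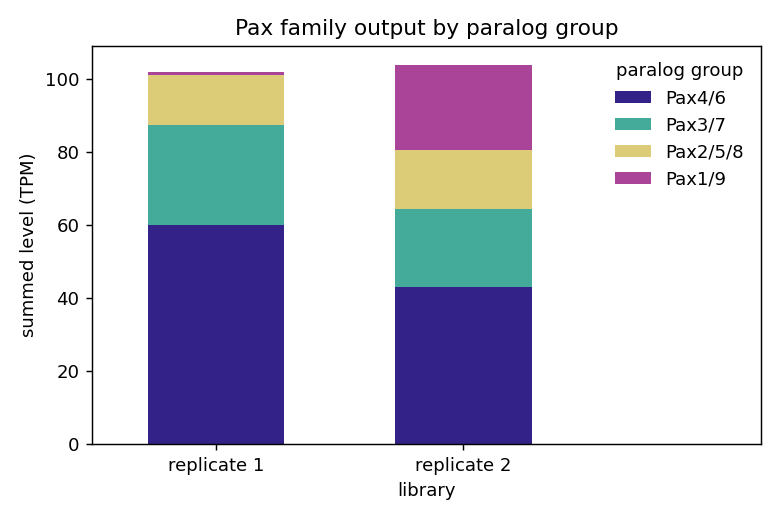
Summed level of each paralog group (TPM, stacked) in each library. Both bars end near the same height, 102 and 104 TPM, and the Pax1/9 segment grows from 0.88 TPM in replicate 1 to 23.3 TPM in replicate 2.

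Of the 9 members, 6 were at 1 TPM or more in both libraries: Pax2, Pax3, Pax5, Pax6, Pax7 and Pax8. Over all 21474 protein-coding genes, 60.8% passed the same rule. Ordered by mean level, the members ran Pax6, Pax3, Pax1, Pax5, Pax7, Pax9, Pax2, Pax8 and Pax4. Pax6 lay above Pax3 in both libraries, and Pax8 lay above Pax4 in both. Every other pair of neighbours in the order had overlapping ranges over the 2 libraries. Among these pairs, Pax2 lay above Pax8 within each library, at 1.61 against 1.17 TPM and 5.96 against 5.12 TPM. The remaining pairs changed places between the libraries, so their order is not resolved by these samples.

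**Figure D2:**
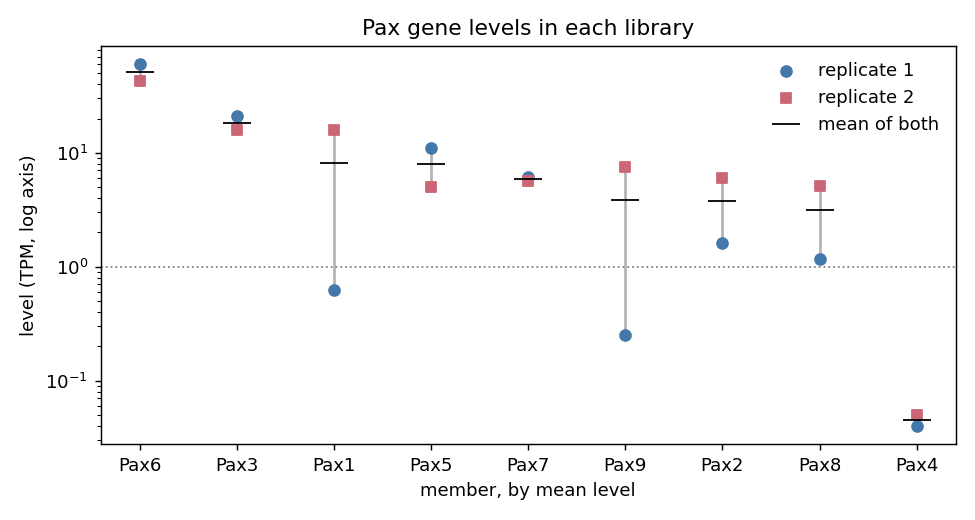
Level of each member (TPM, log axis) in replicate 1 (circles) and replicate 2 (squares), with their mean as a bar and a dotted line at 1 TPM. The points of Pax7 nearly coincide, and those of Pax1 and Pax9 lie farthest apart.

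Differences between the libraries are given as the log2 ratio of read counts, replicate 2 over replicate 1, after scaling by the trimmed mean of M values (TMM). A member counts as differing where its 2 counts sum to at least 100 and the scaled ratio is at least 2-fold. By this rule 4 of 8 members, Pax1, Pax2, Pax8 and Pax9, were higher in replicate 2, and 1 of 8, Pax5, was lower. Among all 16511 genes with enough counts, 6.35% were that much higher, 5.05% that much lower and 11.4% either. Among 14757 protein-coding genes the shares were 5.58%, 3.95% and 9.53%. The median log2 ratio was 0.70 over the 8 members and -0.01 over all genes tested. No member lay near 0.70: the closest below was Pax7 at -0.25 and the closest above Pax2 at 1.65. Intervals beside each ratio are exact 95% binomial intervals of the 2 counts: they cover counting error only and compare 2 libraries, not conditions. In RNA from whole tissue, more cells of a type and more RNA per cell cannot be told apart.

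**Figure D3:**
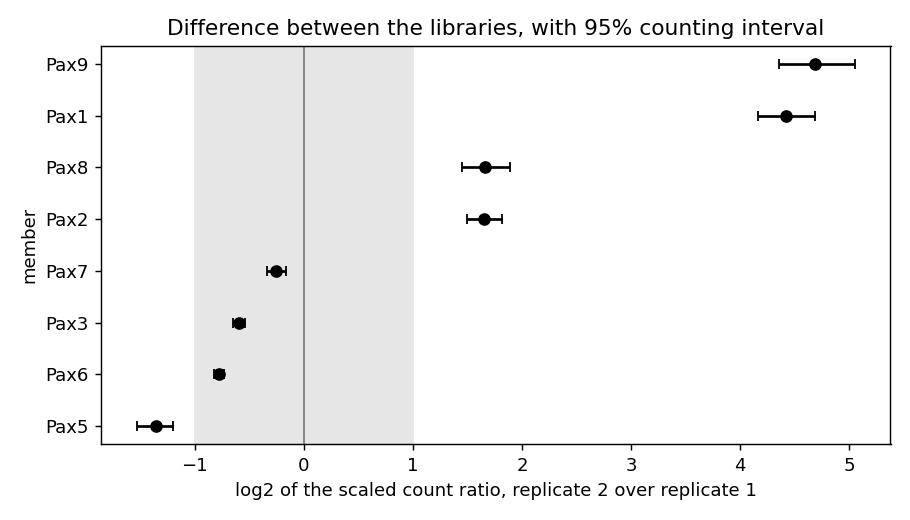
Log2 ratio of TMM-scaled counts, replicate 2 over replicate 1, for the 8 members with at least 100 counts, with exact 95% counting intervals and a grey band for less than 2-fold. Pax1 and Pax9 lie beyond 4 on the log2 scale, and Pax5 is the one member left of the band.

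Pax6 (ENSMUSG00000027168.17, chr2:105668900-105697364, plus strand, mm10) was the most abundant member in each library. Its level was 60.1 TPM in replicate 1 and 43.1 TPM in replicate 2 (mean 51.6 ± 12.04 TPM, SD, n = 2), from 9239 and 5279 counts. The scaled ratio was -0.78 on the log2 scale, or 1.71-fold lower in replicate 2 (interval 1.66 to 1.77), which is inside the 2-fold rule. The authors also gave a first and a second value on mm9, which no label ties to a replicate. On the Ensembl 65 genes the log2 ratio of the second to the first Pax6 value was -0.62. On the highest of the 6 assembled mm9 models that overlap it, Pax6 was at -1.24, past 2-fold. Its relative Pax4 (ENSMUSG00000029706.11, chr6:28442334-28449353, minus strand), a factor of insulin-producing cells, was close to the detection floor. Pax4 had 4 and 2 counts, or 0.04 and 0.05 TPM, and the limit that 3 counts set covers nearly all of this signal, so no fold is given. The 9 islet markers included Ins2 at 0 TPM in both libraries and Ins1 at 0 and 0.07 TPM, while Sst, which young neurons also express, reached 47.1 and 28.7 TPM.

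Pax3 (ENSMUSG00000004872.11, chr1:78101267-78197134, minus strand), a factor of dorsal neural tube, neural crest and muscle precursors, was the next most abundant member by mean. It stood at 21.1 TPM in replicate 1 and 15.8 TPM in replicate 2 (mean 18.4 ± 3.75 TPM, SD, n = 2), from 6113 and 3968 counts. In replicate 2 it was 1.51-fold lower (interval 1.45 to 1.57). Pax7 (ENSMUSG00000028736.9, chr4:139737062-139833528, minus strand), which marks dorsal midbrain and spinal progenitors and muscle precursors, was the steadiest member. Its levels were 6.19 and 5.62 TPM (mean 5.91 ± 0.403 TPM, SD, n = 2), from 2466 and 2028 counts, and its ratio was 1.19-fold lower (interval 1.12 to 1.26). Neither Pax3 nor Pax7 was higher in replicate 2, the library with more muscle RNA. Among dorsal neural tube genes, 1 of 8, the roof plate signal Gdf7, was at least 2-fold lower, at 2.45 and 1.10 TPM, and none was higher. Among neural crest genes 3 of 8 were higher (Sox10, Foxd3 and Erbb3), Erbb3 at 1.08 and 8.29 TPM, and none was lower.

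Pax5 (ENSMUSG00000014030.11, chr4:44524757-44710487, minus strand), which acts at the midbrain-hindbrain boundary, was the one member at least 2-fold lower in replicate 2. Its level was 10.99 TPM in replicate 1 and 5.05 TPM in replicate 2 (mean 8.02 ± 4.20 TPM, SD, n = 2), with 1078 and 411 counts. The scaled ratio was -1.36, or 2.56-fold lower (interval 2.29 to 2.88). On the log2(TPM + 1) scale the difference was -0.99, just short of 2-fold. The boundary genes En1 and En2, which Pax2/5/8 factors are known to activate, moved the same way: En2 was at 45.0 and 14.3 TPM, with a log2 ratio of -1.84. The boundary list did not move as a whole. Of its 10 genes 5 were at least 2-fold lower, and Gbx2 leaned the other way, at 6.15 and 9.30 TPM. B lymphocyte markers, a type that could also carry Pax5, summed to 2.07 and 3.67 TPM, with Ms4a1 at 0 in both.

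Pax2 and Pax8, paralogs of Pax5, differed in the other direction. Pax2 (ENSMUSG00000004231.11, chr19:44756045-44837871, plus strand), a factor of the boundary, of spinal interneurons and of the kidney, was at 1.61 and 5.96 TPM (mean 3.79 ± 3.08 TPM, SD, n = 2), from 434 and 1338 counts. Its scaled count was 3.15-fold higher in replicate 2 (interval 2.83 to 3.52). Pax8 (ENSMUSG00000026976.11, chr2:24420560-24475599, minus strand), which acts beside Pax2 in these tissues and alone in the thyroid, was at 1.17 and 5.12 TPM (mean 3.15 ± 2.79 TPM, SD, n = 2), from 230 and 714 counts. It was 3.17-fold higher (interval 2.73 to 3.70), and the Pax2 and Pax8 intervals overlap. In the authors' mm9 values the second over the first was 2.89 for Pax2 and 7.19 for Pax8, so these amounts were not alike there. Kidney and nephric markers moved with them in part. In that list 3 of 8 genes with enough counts were at least 2-fold higher, among them Wt1 at 2.25 and 10.7 TPM, while Emx2 and Six2 were not. Most genes of spinal and hindbrain inhibitory neurons did not move with them: the median log2 ratio of the 10 was -0.18, and none was at least 2-fold lower. Lhx1, the most abundant, was at 27.9 and 25.5 TPM and Lhx5 at 19.8 and 11.8 TPM. In that list 2 of 10 were at least 2-fold higher, namely Lbx1, which is also in the muscle list, at 0.05 and 2.94 TPM and Slc6a5, the neuronal glycine transporter, at 0.13 and 3.38 TPM. Of 6 thyroid markers 2 had enough counts, and none of these was at least 2-fold higher or lower. Tg, the precursor of thyroid hormone, was at 0.23 and 0.40 TPM. Foxe1 rose from 4 to 81 counts, while Nkx2-1 leaned the other way, at 15.75 and 9.53 TPM. In the inner ear list 3 of 9 genes were at least 2-fold higher and none lower, with a median log2 ratio of 0.81. None of these sources was tested.

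Pax1 and Pax9, which pattern the sclerotome and the pharyngeal pouches and carry no homeodomain, differed most between the libraries. Pax1 (ENSMUSG00000037034.11, chr2:147361925-147393295, plus strand) was at 0.63 TPM in replicate 1 and 15.8 TPM in replicate 2 (mean 8.21 ± 10.7 TPM, SD, n = 2), from 131 and 2747 counts. Its scaled count was 21.4-fold higher (interval 18.0 to 25.7). Pax9 (ENSMUSG00000001497.14, chr12:56691767-56712822, plus strand) was at 0.25 and 7.51 TPM (mean 3.88 ± 5.13 TPM, SD, n = 2), from 73 and 1846 counts, and was 25.7-fold higher (interval 20.5 to 33.1). On the log2(TPM + 1) scale, which understates changes from low levels, the differences were 3.36 for Pax1 and 2.77 for Pax9, against 4.42 and 4.68 for scaled counts. Of all genes tested, 99.6% had a lower ratio than Pax1 and 99.6% a lower ratio than Pax9. In replicate 2 Pax1 was level with Pax3, whereas in replicate 1 it was 1 of the 3 members under 1 TPM.

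Markers of the tissues that use Pax1 and Pax9 did not move as one. Nkx3-2 and Acan, 2 of 7 sclerotome genes with enough counts, were higher in replicate 2 by the 2-fold rule, and 1, Uncx, was lower. Acan, a cartilage matrix gene, was at 0.04 and 0.97 TPM, and Uncx at 59.7 and 29.6 TPM. Col2a1, the major cartilage collagen and a known Pax1/9 target, was high in both libraries, at 198 and 183 TPM. All 4 pharyngeal genes with enough counts were higher, among them Tbx1 at 1.67 and 8.46 TPM and Hoxa3 at 1.03 and 17.0 TPM. The thymus factor Foxn1 was low in both libraries, at 0 and 0.06 TPM, as was the parathyroid factor Gcm2, at 0 and 0.14 TPM. Both had too few counts for the 2-fold rule, but both were higher in replicate 2 beyond counting error. Foxn1 had 0 and 13 counts (lower limit 3.11-fold) and Gcm2 0 and 28 (lower limit 7.26-fold). Also short of enough counts, Foxe1 rose from 4 to 81 counts, and Foxi3 did not rise, at 13 and 10. The list of 8 dermomyotome and somite genes had 4 of 7 higher and 1 lower, led by Meox1 at 0.61 and 12.3 TPM.

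The stretches of 250 bases before the RefSeq starts of Pax1 and Pax9 are shown because these 2 genes shared the largest difference, and that of the upstream Pax6 start because Pax6 was the most abundant member. RefSeq windows on GRCm38.p6 were at hand for 7 of the 9 members, 10 windows in all. Capitals mark GGGCGG and CCAAT on either strand.
Pax1, chr2:147364744-147364993, plus strand: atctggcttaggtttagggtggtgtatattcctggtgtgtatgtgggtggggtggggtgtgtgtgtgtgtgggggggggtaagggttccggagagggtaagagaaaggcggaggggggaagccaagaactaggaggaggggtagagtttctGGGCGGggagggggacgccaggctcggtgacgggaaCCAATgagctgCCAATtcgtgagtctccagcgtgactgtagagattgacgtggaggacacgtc
Pax9, chr12:56695221-56695470, plus strand: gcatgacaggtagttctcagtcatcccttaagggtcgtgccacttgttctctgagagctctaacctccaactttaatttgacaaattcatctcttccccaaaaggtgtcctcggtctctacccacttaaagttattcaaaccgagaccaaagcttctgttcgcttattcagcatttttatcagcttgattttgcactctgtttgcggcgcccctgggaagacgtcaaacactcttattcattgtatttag
Pax6, chr2:105668646-105668895, plus strand: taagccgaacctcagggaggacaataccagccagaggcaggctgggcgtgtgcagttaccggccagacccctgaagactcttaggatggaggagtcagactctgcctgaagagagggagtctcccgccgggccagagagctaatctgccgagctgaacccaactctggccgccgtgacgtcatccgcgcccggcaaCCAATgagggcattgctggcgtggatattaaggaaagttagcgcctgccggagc
4 motifs were searched on both strands: GGGCGG (the GC box), CCAAT (found before many starts), TATAAA (the core of the classic start element) and CANNTG (an E-box), each counted whether or not it overlapped another. The Pax1 window held 1 match to GGGCGG and 2 to CCAAT, the Pax9 window 1 to CANNTG and none to the others, and the Pax6 window 1 to CCAAT. Over all 32851 windows, 32.7% held GGGCGG, 33.8% CCAAT, 12.4% TATAAA and 66.2% CANNTG. The Pax1 window was 58.8% G and C and the Pax9 window 43.6%, against a median of 52.4% over all windows. A match is a description of letters and not a binding site.

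Transcript shares separate members with 1 dominant form from members with many. Shares are each transcript's percent of its gene's summed transcript TPM, and they rest on the authors' estimate of how reads divide between overlapping forms. Of the 74 transcripts, 17 were at 0 in both libraries. The leading transcript was the same in each library for 4 of the 6 members that passed the 1 TPM rule, Pax2, Pax3, Pax7 and Pax8.

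**Figure D4:**
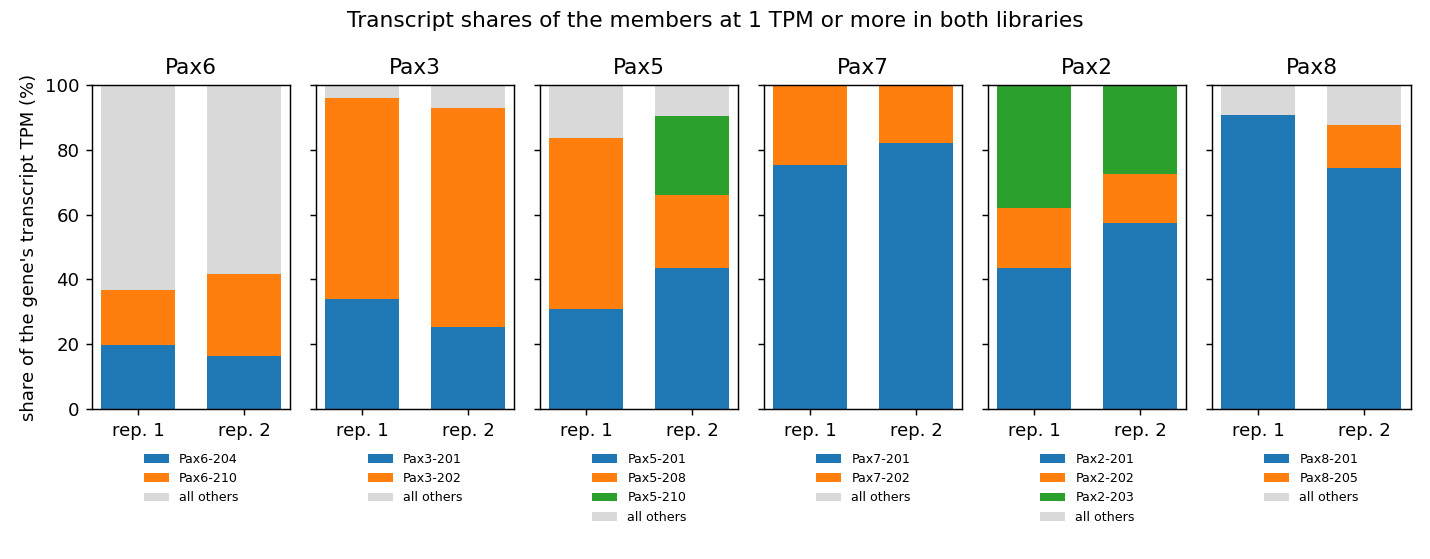
Share of each transcript in its gene's transcript TPM (%), per library, for the 6 members at 1 TPM or more in both; forms that reach 10% in neither library are pooled in grey. Pax8 has 1 dominant form, and most of Pax6 lies in the grey pool.

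Pax7 was split between 2 coding forms. Pax7-201 held 75.4% in replicate 1 and 82.0% in replicate 2, and Pax7-202, whose model has the 6-base piece shown above, held 24.6% and 18.0%. In Pax3, Pax3-202 led with 61.9% and 67.6%, followed by Pax3-201 with 34.0% and 25.3%. Pax8-201 held 90.6% and 74.3% of Pax8, and a short retained-intron form, Pax8-205, was at 0 and 13.5%, the latter on 7.80 counts. In Pax2, Pax2-201 held 43.5% and 57.6%, Pax2-203 held 37.9% and 27.5%, and Pax2-202 held 18.6% and 14.9%. Pax2-201 contains the 69-base exon, and Pax2-203 joins its neighbours without it. Counted by expected reads rather than TPM, Pax2-203 led in replicate 1.

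Pax5 and Pax6 had different leading transcripts in the 2 libraries. Pax5-208, a form of 5 exons, led in replicate 1 with 52.8% and held 22.6% in replicate 2. Pax5-201, with 10 exons, held 30.8% and led replicate 2 with 43.6%. Pax5-210 was at 0 in replicate 1 and at 24.4% in replicate 2. In Pax6, the coding form Pax6-204 led in replicate 1 with 19.7% and held 16.3% in replicate 2, while the noncoding Pax6-210 held 16.9% and 25.4%. By expected counts Pax6-204 led in both. Coding forms together held 49.2% and 48.3% of Pax6 TPM, so about as much of the TPM estimate lay on forms annotated as noncoding. This holds for TPM, in which short forms weigh more than they do in counts. Pax6-210, of 983 bases, held 7.60% and 12.1% of expected counts.

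Splice choices were also counted directly, from reads across junctions in the deposited mm9 junction list. That list gives 2 read counts for each junction, and no label says which is replicate 1. They are named here by position, as first and second column. Reads per junction varied widely within a gene: over 17 Pax6 junctions the second-to-first ratio ran from 0.10 to 2.16. Single junctions were therefore compared only with junctions that share an end with them.

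**Figure D5:**
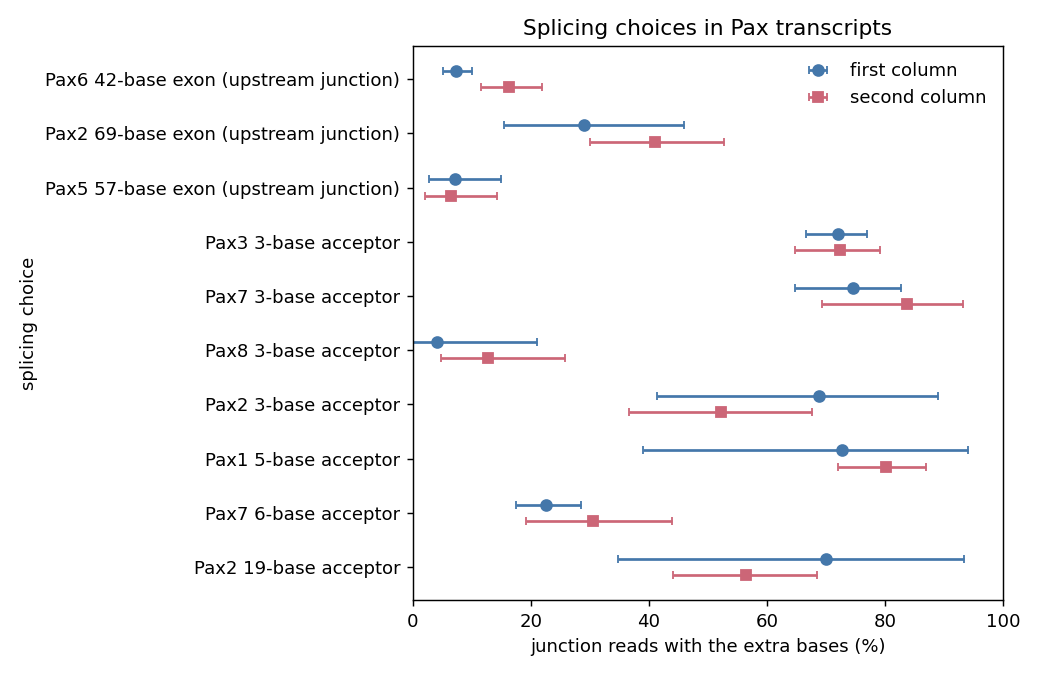
Percent of junction reads that carry the extra bases at 10 splice choices, for the first (circles) and second (squares) column. Bars are exact 95% counting intervals. The Pax6 and Pax2 exons are read at their upstream junction. The Pax5 exon, on the minus strand, is read at its downstream junction, although its label says upstream. The Pax3 and Pax7 3-base choices lie near 70% to 84%, the Pax8 one near 4% to 13%, and the Pax6 intervals are the one pair that does not overlap.

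Exon 5a of Pax6, the 42-base exon printed above, interrupts the paired domain and is known to switch the DNA sites that the protein prefers. By transcript TPM, the 9 forms with it made up 16.7% in replicate 1 and 17.1% in replicate 2 of the forms that either include it or join its neighbours directly (mean 16.9% ± 0.346, SD, n = 2); 7 forms skip it. The 9 are Pax6-201, Pax6-205, Pax6-206, Pax6-212, Pax6-213, Pax6-215, Pax6-222, Pax6-224 and Pax6-225, of which Pax6-215 was at 0 in both libraries. Among them Pax6-201 led in replicate 1 with 2.61 TPM and stood at 0.23 TPM in replicate 2, where Pax6-222 led with 1.02 TPM. In the junction list, 36 reads entered the exon, 77 left it and 458 skipped it in the first column. In the second column the counts were 35, 30 and 180. Averaging both inclusion junctions gave 10.98% and 15.3%. The upstream junction alone gave 7.29% (exact 95% interval 5.16 to 9.95) and 16.3% (11.6 to 21.9), and the downstream junction alone 14.4% (11.5 to 17.7) and 14.3% (9.85 to 19.8). Only the upstream junction differed between the columns beyond counting error, and in the first column the upstream and downstream junctions of this exon also lay outside each other's intervals.

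The 3-base choice in Pax3 and Pax7 was shared by both paralogs and favoured the longer form. In Pax3, 224 reads kept the 3 bases and 87 lacked them in the first column, or 72.0% kept (66.7 to 76.9). In the second column 115 kept and 44 lacked them, or 72.3% (64.7 to 79.1). Pax7 kept them in 73 of its reads against 25 in the first column, or 74.5% (64.7 to 82.8), and in 36 against 7 in the second, or 83.7% (69.3 to 93.2). The intervals of the 2 columns overlapped in each gene, and those of the 2 genes overlapped as well. The models of Ensembl 65 and of GENCODE M21 held the longer form of each gene and not the shorter, so transcript TPM puts 100% on the longer form. The transcript tables thus give no level for a Pax3 form that had 131 junction reads.

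Pax8 used its own 3-base choice the other way. The longer form had 1 read against 23 in the first column, or 4.17% (0.105 to 21.1), and 6 against 41 in the second, or 12.8% (4.83 to 25.7). Transcript TPM put 6.19% and 6.39% on the 2 models with these 3 bases. Pax8 also skipped a 207-base exon by a junction between annotated exon ends that no model joins, with 10 and 13 reads. Inclusion was 60.8% and 70.5% over both junctions.

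The 6-base choice of Pax7, in the exon after the 3-base one, favoured the shorter form. The longer form had 55 reads against 188 in the first column, or 22.6% (17.5 to 28.4), and 18 against 41 in the second, or 30.5% (19.2 to 43.9). The longer form stood at 24.6% and 18.0% by transcript TPM, within the counting intervals of the junction reads except for the last against the second column. For the 69-base exon of Pax2, 11 reads entered, 3 left and 27 skipped in the first column, and 32, 18 and 46 in the second, giving 20.6% and 35.2%. Transcript TPM gave 53.4% and 67.7%, far above the junction values in both libraries, on 2 models. The 57-base exon of Pax5 was included in 8.77% and 5.81% of junction reads and in 10.6% and 8.70% by transcript TPM. Pax2 had a pair of further acceptor choices: a 3-base one with 11 longer against 5 shorter reads in the first column and 23 against 21 in the second, and a 19-base one with 7 against 3 and 39 against 30. Neither choice differed between the columns beyond its counting intervals. Pax1 kept its 5 bases in 8 reads against 3 and in 97 against 24, or 72.7% (39.0 to 94.0) and 80.2% (71.9 to 86.9), and no model holds the shorter form.

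Where transcription began could be followed for Pax5 and Pax6. Pax5 is known to start from a distal and a proximal first exon, the distal one being used mainly in B lymphocytes. In the first column, 30 of 36 junction reads into the following exon of Pax5 left the annotated end of the proximal first exon. That was 83.3% (67.2 to 93.6), and in the second column it was 18 of 28, or 64.3% (44.1 to 81.4). A further 2 and 5 reads left an unannotated end 30 bases from the annotated one. They were counted in the totals but not as proximal. With them the proximal share would be higher in both columns, and by more in the second. The distal first exon supplied 4 reads in each column, or 11.1% and 14.3%. Pax5-208 begins with the proximal exon, and Pax5-201 and Pax5-210 with the distal one. Transcript TPM therefore put more on the distal start than the junction reads did: Pax5-201 alone held 30.8% and 43.6%. For Pax6, 42 and 26 junction reads left its most upstream first exon. A first exon inside the gene, before the exon that precedes exon 5a, supplied 11 of 188 and 3 of 132 reads into that exon, or 5.85% (2.96 to 10.2) and 2.27% (0.471 to 6.50).

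The members were also quantified by the authors on mm9, in RPKM, a read level scaled for length and depth. By the first value and by the mean, the order of abundance began with Pax6 and Pax3 there too. Pax6 was at 9.88 and 6.45 RPKM in the first and second value and Pax3 at 3.46 and 2.10. In the second value Pax1 lay just above Pax3. Pax1 was at 0.0829 and 2.14 RPKM, Pax9 at 0.0351 and 1.08, Pax8 at 0.126 and 0.909, and Pax2 at 0.432 and 1.25. Pax5 was at 1.55 and 0.627, Pax7 at 0.946 and 0.809, and Pax4 at 0.0043 and 0.0044. The 8 members other than Pax4 lay higher or lower in the second value just as they did in replicate 2, although no label ties the 2.

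Most annotated genes on the opposite strand were at low levels. Of the 12 annotated genes that overlap a member, 10 are antisense, and 1, Slc25a21 beside Pax9, was at 1 TPM or more in both libraries, at 1.66 and 1.15 TPM. The antisense gene AI646519, which overlaps Pax1, moved with it, from 0.13 TPM and 2 counts to 3.21 TPM and 38 counts. Pax6os1, antisense to Pax6, was at 0.18 and 0.26 TPM. The libraries are stranded, and whether the counting used strand is not given in the sources used here. What the antisense genes add to the counts of the members was not tested.

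Known targets moved with their Pax group in some cases and against it in others. The list of Eya, Dach and sine oculis homeobox genes, which work in a network with Pax factors, had 4 of 12 at least 2-fold higher in replicate 2, among them Eya1 and Eya4, and 2 lower (Six3 and Six6), with a median log2 ratio of 0.35. Eya4 was at 2.67 and 10.1 TPM and Six3, a forebrain and eye factor, at 16.8 and 6.76 TPM. Eya3 was the most abundant, at 36.1 and 34.1 TPM. Of 10 targets of Pax3/7, 6 were higher and none lower, with a median of 1.55. The muscle determination gene Myod1 was at 0.15 and 19.4 TPM, although Pax3 and Pax7 themselves were not higher, while Msx2 was at 20.6 and 14.1 TPM and Cxcr4 at 79.8 and 82.9 TPM. Of 6 targets of Pax1/9 with enough counts, 3 were higher and none lower, with a median of 1.26.

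Targets of Pax6 and of Pax2/5/8 leaned the other way. Of 10 Pax6 targets, 2 were at least 2-fold lower and none higher, with a median log2 ratio of -0.53 beside -0.78 for Pax6 itself. Eomes, a factor of intermediate progenitors, was at 12.04 and 5.28 TPM. Fabp7, a radial glia lipid carrier, was the most abundant at 565 and 475 TPM, and Mab21l2, a factor of eye and midbrain, was at 42.1 and 66.8 TPM. Of 9 targets of Pax2/5/8, 3 were lower (En1, En2 and Pou3f2) and none higher, with a median of -0.30. The Pax2/5/8 genes themselves summed to 13.8 TPM in replicate 1 and 16.1 TPM in replicate 2, with Pax5 lower and Pax2 and Pax8 higher. The Fgf8 level, a signal of the boundary organizer, was 6.97 and 7.21 TPM. Among 10 corepressors and Pax-binding proteins, 1, Tle2, was higher at 23.8 and 60.2 TPM, and none was lower. Paxbp1, which links Pax3 and Pax7 to chromatin enzymes, was the most abundant of these at 148 and 126 TPM.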

How the data were processed

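Polyadenylated RNA of 2 libraries was analysed. The authors deposited, per the file headers, an expected count, TPM and FPKM for each gene and transcript on mm10, on annotation M4 per a deposited readme. The sources used here name neither aligner nor quantifier. The deposited transcript tables also hold a percent of the gene, per the file headers, which was recomputed here from TPM. On mm9 the deposited tables give RPKM on Ensembl 65 genes and on assembled models, and a deposited list gives junction reads. The exon table was used for exon positions alone. Expected counts of the 43346 Ensembl genes, 95.3% and 96.7% of all counts, were rounded and scaled by TMM in edgeR 4.0.16, with a prior count of 0.5. DESeq2 1.42.0 size factors, total counts, upper quartiles and log2(TPM + 1) were alternatives, and the ratio calculation was checked on simulated data. Total counts moved the median ratio of all genes to 0.12 and log2(TPM + 1) to 0.12, against -0.01 with TMM. Symbols and positions came from GENCODE M21, and 70 of the 74 transcripts had the same length there. For Pax5-201 the length differed. Splice choices needed at least 20 junction reads. The text names all members, transcripts at 10% or more in either library in members at 1 TPM in both, every Pax6 form with exon 5a, and from each list the genes highest or lowest in level or ratio. Other genes were named after their values were seen. The members and lists were chosen with earlier results of these data known. Python 3.11.15 was used for the rest.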

Additional observations from a re-analysis of the deposited data

Results flagged for a closer look

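In 5 members the deposited mm9 junction list holds junctions that no Ensembl 65 model has, each with at least 20 reads over both columns and reads in each. The Pax3 acceptor that drops 3 bases carried 131 reads and the matching Pax7 acceptor 32. The Pax1 acceptor that drops 5 bases carried 27 reads, and the Pax8 junction past the 207-base exon 23. The largest was in Pax6, with 696 reads, 495 in the first column and 201 in the second. A flag of the list, read here as canonical, was 0 for this Pax6 junction. For the Pax1, Pax3, Pax7 and Pax8 junctions named before, that flag was 1. The Pax6 junction thus differs from those in kind. It lies 3 bases before an annotated Pax6 junction at both ends, with the same intron length of 357 bases, and the annotated junction itself carried 0 reads. The exon before it ends in cag in the M21 transcripts, and whether the intron ends in the same letters, so that both positions would give the same spliced sequence, was not tested. The list has no control samples to set these reads against.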

How the results depend on the processing

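No paired analysis was possible because there is only 1 group. The median log2 ratio of the 8 members was 0.70 with TMM and 0.83 with total counts. The 4 members at least 2-fold higher were the same in all 6 alternatives run for that count. The 1 lower member, Pax5, became 0 with log2(TPM + 1) and 0 at 3-fold. Members at 1 TPM in both numbered 6, against 7 at 0.5 TPM, 4 at 2 TPM and 5 by FPKM. The Pax6 exon 5a share was 16.9%, against 16.4% by expected counts, 13.1% by junction reads averaged, 11.8% at the upstream junction and 14.3% at the downstream one. The summed mm9 level was 15.9 RPKM on Ensembl 65 genes. With only the highest assembled model that overlaps each member it was 4.48 RPKM, which is not a sum over all assembled models. Pax5 overlapped 13 assembled models and Pax6 overlapped 6. On the highest model the mm9 log2 ratio of Pax5 turned to 0.19, and that of Pax6 moved from -0.62 to -1.24. The cause was not tested. Of 45 ratios of single members under other scalings, 10 left their counting interval and none changed sign among members with at least 100 counts. With 2 libraries, a level without either one is the other's value. The leading transcript has no such value, since it compares both. Depth limits Pax4, with 6 counts in all, and the junction shares of Pax1, Pax2 and Pax8, which rest on few reads.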
